A study of Mus musculus with 6 samples.

Results

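The Notch receptors, ligands and effectors studied here are 10 genes taken by gene symbol: the receptors Notch1, Notch2 and Notch3, the ligands Dll1, Jag1 and Jag2, the DNA-binding factor Rbpj, and the effectors Hes1, Hey1 and Heyl. All 10 were found among the 54115 genes to which transcripts were matched, and all 10 held enough reads to be tested. Their RNA was measured by RNA-sequencing in muscle stem cells, called satellite cells, sorted from uninjured hindlimb muscle of C57BL/6J mice of 6 to 8 weeks. There were 3 Pax7WT libraries and 3 Pax7KR libraries. In Pax7KR mice, arginine replaces 1 acetylated lysine of PAX7, the paired-box transcription factor that marks satellite cells, and this change was introduced with Cas9 in zygotes. Pax7WT mice are wild-type littermate controls, and both genotypes share the strain, the sort and the library kit. Cells were positive for α7-INTEGRIN and CD34 and negative for CD31, CD11b, SCA-1 and CD45. The mutation is present in every cell from the germline on, and the number of animals behind each library is not given in the sources used here, so p-values measure the spread between these libraries only. The question was whether RNA of the Notch pathway differed when this lysine of PAX7 cannot be acetylated.

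Notch signalling passes between touching cells. A ligand of the Delta-like or Jagged family on one cell binds a Notch receptor on its neighbour, the receptor is cut in sequence by an ADAM protease and by γ-secretase, and the freed intracellular domain enters the nucleus, where it joins RBPJ and a Mastermind coactivator to switch on genes of the Hes and Hey families. In adult muscle this pathway is known for keeping satellite cells quiescent and Pax7-positive, and loss of Rbpj in these cells leads them to differentiate without dividing. Hes1, Hey1 and Heyl encode basic helix-loop-helix repressors that are used as readouts of the pathway.

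Depth ran from 17822367 to 27908054 estimated reads per library. Pax7 itself was present at 590, 511 and 523 TPM in Pax7WT and at 515, 530 and 584 TPM in Pax7KR, so the genotypes overlapped. A change of 1 amino acid need not alter the RNA level, so this does not check the labels. TPM, a relative transcript abundance, is corrected for transcript length and allows levels of different genes to be compared. All 10 satellite cell markers examined were expressed, with a summed level of 4320 to 4645 TPM in Pax7WT and 4602 to 5013 TPM in Pax7KR. Marker lists of other cell types were lower in sum, as was a separate list of activation and commitment genes. Endothelial markers summed to 126 to 166 TPM in Pax7WT and 142 to 205 TPM in Pax7KR, and 9 of the 10 had estimates above 0 in Pax7KR. Smooth muscle and pericyte markers summed to 316 to 388 and 308 to 391 TPM, with 9 of 10 estimates below 0. Over all 6 libraries the fibro-adipogenic markers summed to 1225 to 1402 TPM, glial markers to 202 to 245 TPM, myofibre markers to 60.7 to 85.7 TPM, immune markers to 15.9 to 22.5 TPM and activation and commitment genes to 215 to 281 TPM, each overlapping between genotypes, and Cd3e was listed at 0 in all 6. In such bulk samples fewer cells of a type and less RNA per cell cannot be told apart. The highest of the endothelial list was Tek at 78.8 TPM and of the smooth muscle list Acta2 at 149 TPM, while Col3a1 at 627 TPM led the fibro-adipogenic list, Ncam1 at 152 TPM the glial list, Acta1 at 21.7 TPM the myofibre list and Lyz2 at 8.13 TPM the immune list. Several sums rested on few genes. Next to Col3a1, Dpt was at 623 TPM, and the rest of that list ran from 0.72 TPM (Pdgfra) to 33.6 TPM (Dcn). Next to Acta2, Tagln was at 131 TPM, and the rest ran from 1.35 TPM (Cnn1) to 19.5 TPM (Mcam). Glial genes other than Ncam1 ran from 1.56 TPM (Sox10) to 37.5 TPM (Mbp), and endothelial genes other than Tek from 3.65 TPM (Kdr) to 16.8 TPM (Pecam1). One library stood apart: in Pax7KR replicate 2, 4 Y-linked genes chosen after their values were seen (Ddx3y, Eif2s3y, Uty and Kdm5d) summed to 83.2 TPM, against 188 to 216 TPM in the other 5 libraries, while Xist lay at 0.08 TPM there and at 0.04 to 1.08 TPM in the others. Values without this library are therefore given where a result on the 10 genes rests on it, and as a count for the other pathway genes.

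Upstream sequence is shown for 2 of the genes: Notch3, because it was the most abundant of the 10, and Rbpj, because its difference between genotypes had the smallest p-value and because, of the 7 genes with a window in the table used, it was the only one whose window held the core recognised by its own protein. The sequences come from RefSeq (build GRCm38.p6). The Notch3 window holds the 250 bases before the start site at chr17:32166891-32167140 on the minus strand and contains no annotated exon. The Rbpj stretch holds 118 bases at chr5:53590096-53590213 on the plus strand. It lies between annotated exons of this gene, which spans chr5:53466152-53657362, and ends where the first exon of one of its shorter transcripts begins. Capitals mark the RBPJ core TGGGAA.
Notch3: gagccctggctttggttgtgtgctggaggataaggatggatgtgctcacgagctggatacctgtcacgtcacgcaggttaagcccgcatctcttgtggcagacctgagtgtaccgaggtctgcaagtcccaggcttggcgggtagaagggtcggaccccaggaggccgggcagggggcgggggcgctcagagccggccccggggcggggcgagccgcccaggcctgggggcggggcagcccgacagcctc
Rbpj: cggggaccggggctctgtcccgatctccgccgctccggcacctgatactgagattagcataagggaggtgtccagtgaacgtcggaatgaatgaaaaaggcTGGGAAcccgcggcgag

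Of the 10 genes, 7 had upstream windows in the table used, and Hes1, Hey1 and Heyl did not. The letters TGGGAA, searched on both strands as TGGGAA and TTCCCA, occurred in the 250 bases upstream of 1 of these 7 genes, Rbpj, and in 21.6% of all 32851 windows of the same length, or upstream of 24.1% of all 27025 genes. The palindromic homeobox core TAATTA occurred upstream of 0 of the 7 genes and of 5.65% of all genes (4.84% of windows). The shorter letters ATTA or TAAT, which lie within TAATTA and are therefore counted again wherever it occurs, were found upstream of 3 of the 7, Dll1, Jag1 and Rbpj, and of 58.5% of all genes (54.9% of windows). A match describes letters in a window and was not tested as a binding site. Several windows overlapped annotated exons. All 250 bases of the Jag2 window and of each Dll1 window lay in exons, as did 124 bases of the Jag1 window. Both Rbpj windows lie within the annotated gene, so they are upstream of a start site but not of the whole gene. The first held 132 exon bases and 2 RBPJ cores, 1 of them in exon bases. The second held 250 exon bases and 1 core. The Notch1, Notch2 and Notch3 windows held 2, 11 and 0.

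The genes differed widely in abundance. Notch3 was the highest, at a mean of 501 TPM over the 6 libraries, followed by Hes1 at 338 TPM and Heyl at 321 TPM. Notch2 at 102 TPM and Hey1 at 96.3 TPM came next, then Rbpj at 68.5 TPM, Notch1 at 63.7 TPM and Jag1 at 57.2 TPM. Dll1 at 14.9 TPM and Jag2 at 4.98 TPM were the lowest. Several neighbours in this order did not differ beyond their spread: the values of Notch3 and Hes1 overlapped over the 6 libraries, as did those of Hes1 and Heyl, Notch2 and Hey1, Rbpj and Notch1, and Notch1 and Jag1. Notch1, which reached 85.1 TPM, also overlapped with Hey1, which fell to 81.3 TPM. Of the remaining neighbours, Heyl lay above Notch2, Hey1 above Rbpj, Jag1 above Dll1 and Dll1 above Jag2 in all 6 libraries. When only protein-coding transcripts were summed, Heyl at 291 TPM and Hes1 at 288 TPM changed places, and Hey1 and Rbpj overlapped. On that sum Notch3, at 457 TPM or more, no longer overlapped with Hes1, at 448 TPM or less. Notch1, from 48.6 to 64.1 TPM, lay above Jag1, at 46.0 TPM or less, and just below Hey1, at 64.2 TPM or more.

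**Figure D1:**
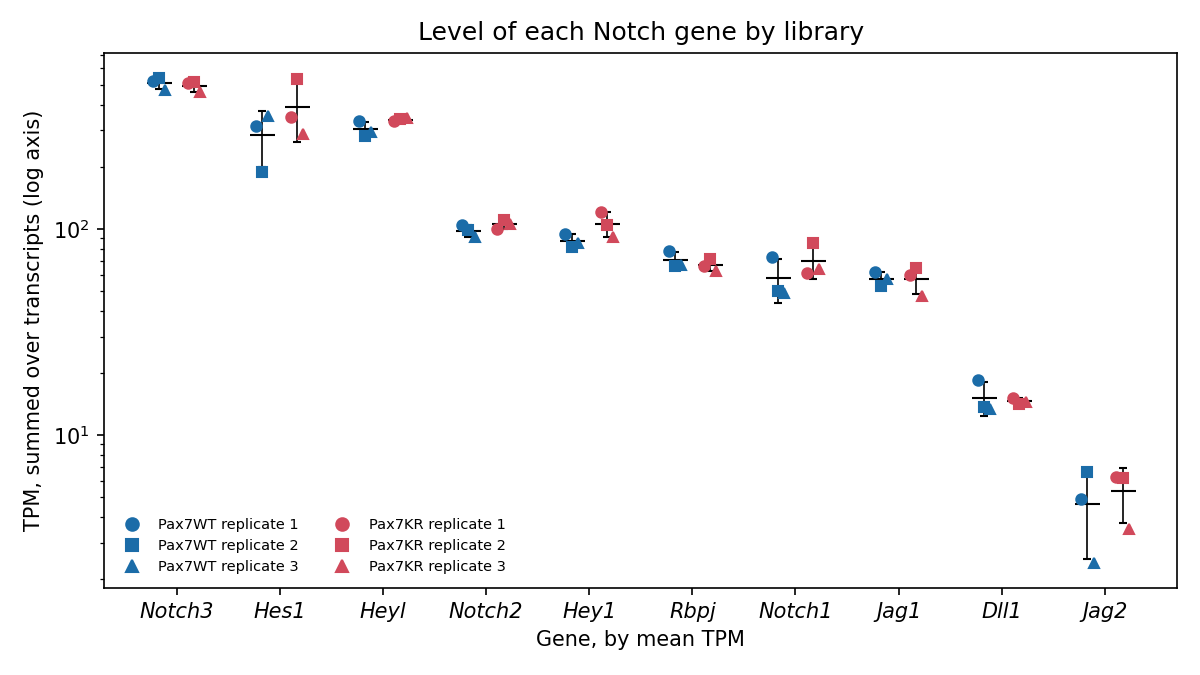
The level of each of the 10 genes in TPM, summed over its transcripts, on a log axis, by library. Blue symbols are the 3 Pax7WT libraries and red symbols the 3 Pax7KR libraries, with the symbol shape giving the replicate, and black marks show the mean and SD of each genotype. Notch3 lies between 458 and 537 TPM, Hes1 is spread from 189 to 534 TPM, and the 2 genotypes overlap for every gene.

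Between the genotypes, none of the 10 genes passed the test. Estimates were above 0 in Pax7KR for 6 genes and below 0 for 4, with a median log2 fold change of 0.04, against a median of -0.0037 over all 17152 genes tested. edgeR's quasi-likelihood test with Benjamini-Hochberg adjustment called 0 of the 10 genes at an adjusted p under 0.1, and also 0% of all genes, the smallest adjusted p over all genes being 0.302. With DESeq2, 30 of all genes were called and 0 of these 10. At an unadjusted p under 0.05 there was 1 gene of the 10, Rbpj, lower in Pax7KR. By the same rule 4.68% of all genes tested had such a p, and 2.43% had it in the lower direction. The CPM values (read counts scaled to the size of the library after TMM normalization) of the genotypes did not overlap for the same gene alone, and for 10.3% of all genes. An exact permutation test over 3 against 3 libraries cannot give a p below 0.1.

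**Figure D2:**
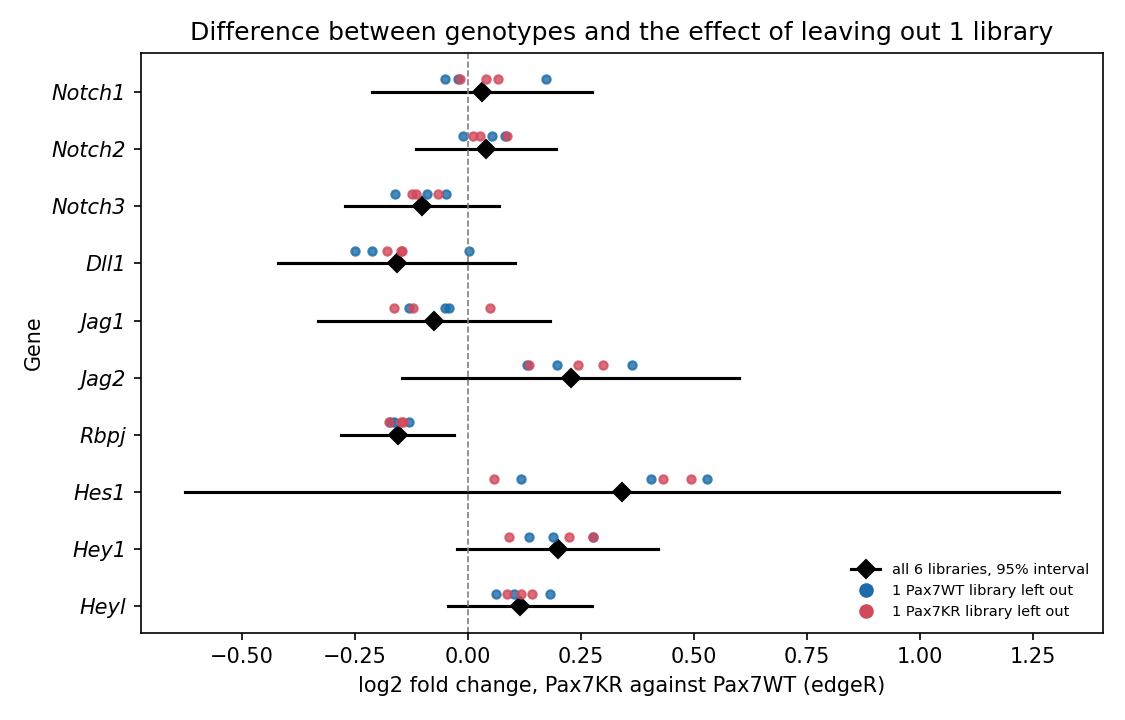
The log2 fold change of each gene in Pax7KR against Pax7WT, by edgeR. Black diamonds and lines are the estimate and 95% interval from all 6 libraries, and small circles are the estimates with 1 Pax7WT (blue) or 1 Pax7KR (red) library left out. Every interval except that of Rbpj crosses 0, the interval of Hes1 is the widest, and the estimates of Notch1, Notch2, Dll1 and Jag1 change sign with 1 library left out.

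Among the receptors, Notch3 carried most of the RNA. This receptor is also a known marker of pericytes and vascular smooth muscle. Notch3 was present at 518, 537 and 471 TPM in Pax7WT and at 507, 515 and 458 TPM in Pax7KR. The third library was the lowest in each genotype, and the genotypes overlapped, with a log2 fold change of -0.10 (SE 0.08, edgeR unadjusted p = 0.222). It was -0.05 without Pax7WT replicate 2 and -0.16 without Pax7WT replicate 3. The 10 smooth muscle and pericyte markers together reached at most 391 TPM in a library, and their part in the Notch3 values was not tested.

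Notch2, which acts together with Notch1 in satellite cells, was present at 104, 98.6 and 91.2 TPM in Pax7WT and at 99.6, 110 and 105 TPM in Pax7KR. These values overlapped, with a log2 fold change of 0.04 (SE 0.07, edgeR unadjusted p = 0.582), and Notch2 had the narrowest range of the 10 genes, its highest CPM being 1.16 times its lowest. Its log2 fold change was 0.0098 without Pax7KR replicate 2 and -0.01 without Pax7WT replicate 3. Notch1, the receptor first tied to satellite cell activation, was present at 73.3, 50.03 and 48.9 TPM in Pax7WT and at 61.2, 85.1 and 63.5 TPM in Pax7KR. The first Pax7WT library lay within the Pax7KR values and the other 2 lay below all of them. The log2 fold change of Notch1, fitted on reads, was 0.03 (SE 0.11, edgeR unadjusted p = 0.789). It was 0.22 with average transcript length taken into account, which is the highest of its alternatives, and -0.02 without Pax7KR replicate 2. Without Pax7WT replicate 1 it was 0.17 (edgeR unadjusted p = 0.0346). On protein-coding transcripts alone Notch1 was at 64.1, 49.2 and 48.6 TPM in Pax7WT and at 56.8, 60.5 and 52.8 TPM in Pax7KR. The log2 ratio of the genotype means was 0.07 on these transcripts, against 0.29 over all transcripts.

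The receptors kept similar proportions in both genotypes. Notch3 made up 76.6% ± 1.97 (SD, n = 3) of the TPM of the 3 receptors in Pax7WT and 73.8% ± 1.82 (SD, n = 3) in Pax7KR, Notch2 14.8% ± 0.34 and 15.7% ± 0.97, and Notch1 8.61% ± 1.70 and 10.4% ± 1.44. Each of these shares overlapped between the genotypes. The ratio of Notch3 to Notch1 ran from 6.05 in Pax7KR replicate 2 to 10.7 in Pax7WT replicate 2. These shares and ratios use all transcripts. A short processed transcript took 20.4% of the Notch1 TPM in Pax7KR replicate 2 and 0% in Pax7WT replicate 2. Summed over the 3 receptors, Pax7WT held 664 ± 46.5 TPM and Pax7KR 668 ± 41.5 TPM (SD, n = 3 each).

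In sum the ligands were lower than the receptors, and Jag1 was the main one. Its level overlapped with that of Notch1 over all transcripts, but not over protein-coding transcripts alone. Jag1, a Jagged-type ligand, was present at 61.8, 53.0 and 57.3 TPM in Pax7WT and at 60.001, 64.3 and 47.1 TPM in Pax7KR. Both the highest and the lowest of these values were Pax7KR libraries, and the genotypes overlapped. Its log2 fold change was -0.08 (SE 0.11, edgeR unadjusted p = 0.517), and it was -0.16 without Pax7KR replicate 2 and 0.05 without Pax7KR replicate 3.

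Dll1, the Delta-like ligand of activated and differentiating muscle progenitors, was present at 18.5, 13.7 and 13.4 TPM in Pax7WT and at 15.1, 14.2 and 14.5 TPM in Pax7KR. The first Pax7WT library stood above the other 5, which lay between 13.4 and 15.1 TPM. Its log2 fold change was -0.16 (SE 0.12, edgeR unadjusted p = 0.214), and it was 0.0024 without Pax7WT replicate 1 and -0.25 without Pax7WT replicate 3. Jag2, the second Jagged-type ligand, rested on 133 to 227 reads per library and was present at 4.89, 6.61 and 2.39 TPM in Pax7WT and at 6.28, 6.21 and 3.50 TPM in Pax7KR. The third library was the lowest in each genotype. For Jag2 the log2 fold change was 0.23 (SE 0.17, 95% interval -0.15 to 0.60, edgeR unadjusted p = 0.211), and it ran from 0.13 without Pax7WT replicate 3 to 0.36 without Pax7WT replicate 2. Jag1 made up 74.4% ± 3.45 of the TPM of the 3 ligands in Pax7WT and 74.0% ± 1.82 in Pax7KR (SD, n = 3 each). The summed receptors exceeded the summed ligands by 8.17 to 9.63 times in the 6 libraries, and these ratios overlapped between the genotypes.

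Rbpj encodes the DNA-binding factor through which all Notch receptors act and which holds target genes silent when no Notch domain is bound. It had the smallest p-value of the 10 genes. In CPM it was measured at 222, 212 and 210 in Pax7WT and at 190, 198 and 190 in Pax7KR. All 3 Pax7WT values lay above all 3 Pax7KR values, as was the case in that direction for 5.19% of all genes tested. The means were 215 ± 6.35 CPM and 193 ± 4.63 CPM (SD, n = 3 each), and the coefficient of variation within each genotype was the smallest of the set. The log2 fold change was -0.16 (SE 0.06, 95% interval -0.28 to -0.03, edgeR unadjusted p = 0.0178, adjusted p = 0.992), and 1.57% of all genes tested had a smaller p.

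With transcript length taken into account the Rbpj difference kept its direction but not its unadjusted p under 0.05. In TPM Rbpj was present at 77.9, 66.3 and 66.7 in Pax7WT and at 66.1, 71.7 and 62.5 in Pax7KR, where Pax7KR replicate 2 lay above 2 of the 3 Pax7WT libraries and the genotypes overlapped. With the mean length of its transcripts as an offset the difference was -0.14 on the log2 scale (edgeR unadjusted p = 0.122), and with the same correction in DESeq2 it was -0.14 (unadjusted p = 0.157). Summed over protein-coding transcripts alone, Rbpj was at 67.1, 65.4 and 64.1 TPM in Pax7WT and at 62.5, 63.9 and 59.3 TPM in Pax7KR. These values did not overlap, in the direction in which 2.6% of 12953 genes did not overlap (13.1% in either direction). The estimate stayed below 0 with any 1 library left out, from -0.18 to -0.13, but edgeR's unadjusted p was 0.0564 without Pax7WT replicate 1, 0.061 without Pax7KR replicate 1 and 0.0545 without Pax7KR replicate 3. Of the 31-base sequences of Rbpj transcripts, 10.3% also occur in the pseudogene Rbpj-ps3, to which 0 to 3 reads per library were assigned.

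All 3 effectors had estimates above 0 in Pax7KR, and none passed the test. Hes1 was the most variable of the 10 genes. It was present at 313, 189 and 353 TPM in Pax7WT and at 347, 534 and 289 TPM in Pax7KR. The lowest value was Pax7WT replicate 2 and the highest Pax7KR replicate 2, and the other 4 libraries of both genotypes lay between 289 and 353 TPM. In CPM the highest library was 2.59 times the lowest, and the coefficient of variation was 30.2% in Pax7WT and 31.1% in Pax7KR, against 2.96% and 2.40% for Rbpj. Between genotypes the log2 fold change of Hes1 was 0.34 (SE 0.36, 95% interval -0.63 to 1.31, edgeR unadjusted p = 0.391). It was 0.06 without Pax7KR replicate 2, the library that stood apart in its Y-linked genes, 0.12 without Pax7WT replicate 2 and 0.53 without Pax7WT replicate 3.

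Hes1 is also known as a gene that responds rapidly to signals, and cell isolation from muscle induces immediate early genes. A list of 10 dissociation response genes, which holds heat shock genes beside immediate early genes, was led by Fos at 5331 TPM. It summed to 28737, 18225 and 30282 TPM in Pax7WT and to 24504, 27353 and 24175 TPM in Pax7KR. Pax7WT replicate 2 was lowest in both this sum and Hes1. Pax7KR replicate 2, the highest in Hes1, was not the highest in the sum, where it was exceeded by 2 Pax7WT libraries. The summed endothelial markers had the same lowest and highest library as Hes1, at 135, 126 and 166 TPM in Pax7WT and 173, 205 and 142 TPM in Pax7KR. So did the summed satellite cell markers, at 4645, 4320 and 4593 TPM in Pax7WT and 4967, 5013 and 4602 TPM in Pax7KR. Tek, the highest gene of the endothelial list, was itself highest in Pax7KR replicate 1, at 87.4 TPM. The part of any of these lists in the Hes1 values was not tested.

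**Figure D3:**
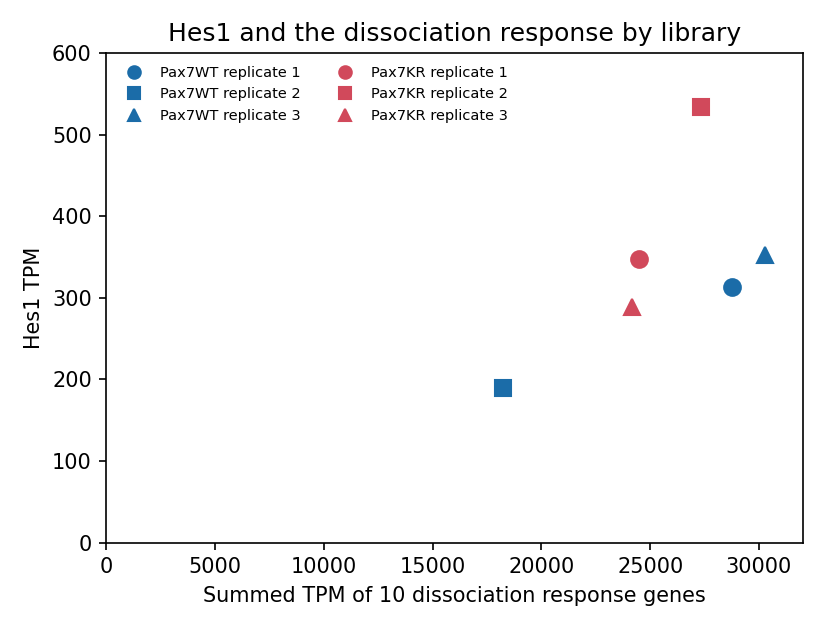
Hes1 in TPM (vertical axis) against the summed TPM of 10 dissociation response genes (horizontal axis), 1 symbol per library, with Pax7WT in blue and Pax7KR in red. Pax7WT replicate 2 is lowest on both axes at 189 and 18225 TPM, and Pax7KR replicate 2 is highest in Hes1 at 534 TPM with 27353 TPM on the horizontal axis.

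Hey1, which together with Heyl is required in satellite cells for quiescence, was present at 94.7, 81.3 and 85.6 TPM in Pax7WT and at 120, 105 and 91.2 TPM in Pax7KR. In Pax7KR 2 libraries exceeded every Pax7WT library, and the third lay below the first Pax7WT library. The means were 87.2 ± 6.80 TPM and 105 ± 14.6 TPM (SD, n = 3 each). The log2 fold change was 0.20 (SE 0.10, 95% interval -0.02 to 0.42, edgeR unadjusted p = 0.0745), and it ran from 0.09 without Pax7KR replicate 1 to 0.28 without Pax7KR replicate 3. edgeR's unadjusted p was 0.0267 without Pax7WT replicate 1, 0.0166 without Pax7KR replicate 3, 0.0183 with the replicate number as a block and 0.0053 with no filter on low counts. In each of these 4 settings its p was smaller than that of Rbpj. With library totals only, edgeR's unadjusted p was 0.0494 for Hey1 and 0.0484 for Rbpj. For Hey1 it was 0.334 without Pax7KR replicate 1 and 0.0861 without Pax7KR replicate 2. It was 0.238 without Pax7WT replicate 2 and 0.164 without Pax7WT replicate 3.

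Heyl was the steadier of the abundant effectors. It was present at 333, 282 and 295 TPM in Pax7WT and at 331, 341 and 344 TPM in Pax7KR. The Pax7KR values lay close together, and the first Pax7WT library lay among them. For Heyl the log2 fold change was 0.11 (SE 0.07, edgeR unadjusted p = 0.142), and it was 0.18 (unadjusted p = 0.0337) without Pax7WT replicate 1 and 0.06 (unadjusted p = 0.431) without Pax7WT replicate 3. On protein-coding transcripts alone the Heyl levels did not overlap, by less than 1 TPM, the highest Pax7WT and the lowest Pax7KR value both rounding to 301 TPM. In that direction 10.5% of 12953 genes did not overlap. The ratio of Heyl to Hey1 in TPM was 3.48 ± 0.04 in Pax7WT and 3.26 ± 0.51 in Pax7KR (SD, n = 3 each).

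By the likeness of their CPM over the 6 libraries, measured as Pearson's r of log2(CPM + 1) among 9520 genes of at least 10 CPM, the nearest genes to Hes1 were Dusp8 (r = 0.990) and Dcaf6 (r = 0.981). Those nearest to Hey1 were Tead1 (r = 0.982) and Fiz1 (r = 0.973), and those nearest to Heyl were Zfp788 (r = 0.987) and Abca1 (r = 0.982). These 6 points share their libraries, picking the highest r of so many genes gives a high value, and each gene had different neighbours among the first 2.

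Some of the genes held reads on short or non-coding transcripts, which weigh heavily in TPM. Notch2 and Notch3 had 98.1% or more of their TPM on protein-coding transcripts in every library. For Notch1 this share was 87.5%, 98.3% and 99.3% in Pax7WT and 92.7%, 71.1% and 83.1% in Pax7KR. The lowest value was Pax7KR replicate 2, where a processed transcript of 219 bases in effective length, took 20.4% of the Notch1 TPM. Jag1 had 68.5% to 75.3% on protein-coding transcripts, the rest being a single retained-intron transcript. The Hes1 share was 87.2%, 87.1% and 88.2% in Pax7WT and 81.8%, 83.9% and 85.8% in Pax7KR. These values did not overlap, and of 6994 genes with both kinds of transcript 5.33% did not overlap in the same direction. The other transcripts of Hes1 were mainly a retained-intron transcript of 207 bases in effective length, at 30.8, 15.3 and 33.5 TPM in Pax7WT and 44.4, 59.9 and 28.8 TPM in Pax7KR, and a processed transcript of 375 bases, at 6.24, 7.41 and 4.12 TPM in Pax7WT and 18.4, 19.0 and 12.4 TPM in Pax7KR. The first overlapped between genotypes and the second did not, as was the case in that direction for 8.22% of 38312 transcripts present in every library. These transcripts were singled out after their values were seen.

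**Figure D4:**
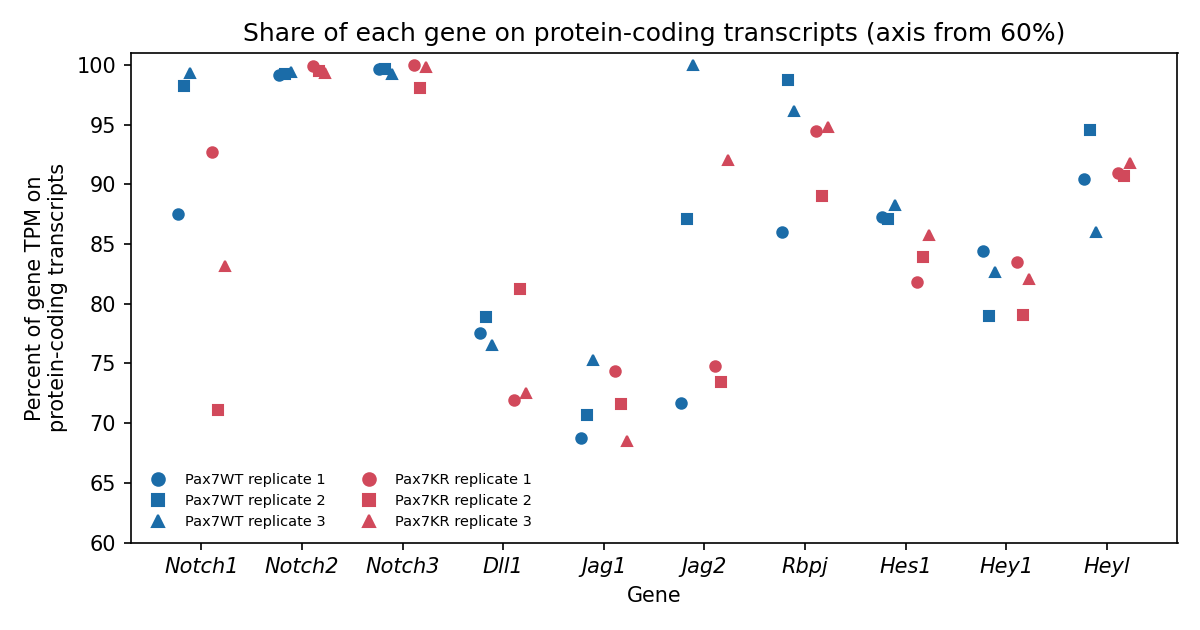
The percent of the TPM of each gene on protein-coding transcripts, by library, on an axis that starts at 60%. Blue symbols are Pax7WT and red symbols Pax7KR libraries. Hes1 is the gene whose genotypes do not overlap, and Notch1 and Jag2 show the widest spread between libraries.

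The other genes of the pathway were read from a list of 65, of which 59 were tested. Estimates in Pax7KR were above 0 for 35 and below 0 for 24, with a median log2 fold change of 0.02. edgeR's quasi-likelihood test called 0 of the 59 after adjustment, and at an unadjusted p under 0.05 there was 1 higher gene, Mib2, and there were 2 lower genes, Myc and Ccnd1, beside 2.26% and 2.43% of all genes in these directions. CPM values did not overlap for Notch4, higher, and Hdac1, lower, beside 5.14% and 5.19% of all genes.

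Mib2, an E3 ubiquitin ligase that drives the endocytosis of ligands, was the highest of the ligand endocytosis genes and had a log2 fold change of 0.17 (SE 0.08, edgeR unadjusted p = 0.0429), with 57.4, 63.6 and 56.1 TPM in Pax7WT and 56.9, 71.3 and 66.1 TPM in Pax7KR. Myc, a growth-promoting transcription factor and a Notch target in several cell types, had a log2 fold change of -0.20 (SE 0.07, unadjusted p = 0.0148 by edgeR), with 107, 89.8 and 102 TPM in Pax7WT and 87.7, 89.9 and 95.1 TPM in Pax7KR. Ccnd1, which encodes cyclin D1, had a log2 fold change of -0.28 (SE 0.12, unadjusted p = 0.0439 by edgeR), with 37.8, 39.3 and 34.5 TPM in Pax7WT and 39.5, 28.5 and 28.8 TPM in Pax7KR. In TPM each of these 3 genes overlapped between genotypes. Pax7KR replicate 2, the library that stood apart, held the highest Mib2 and the lowest Ccnd1 value. Without it 1 gene of the pathway list had an edgeR unadjusted p under 0.05.

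Upstream in the pathway, the remaining receptor, Notch4, known mainly from endothelium, was at 2.92 TPM. In CPM it was at 4.30, 4.69 and 4.43 in Pax7WT and at 5.25, 5.95 and 5.20 in Pax7KR, whereas in TPM its mean was 3.44 in Pax7WT and 2.41 in Pax7KR with overlapping values, so the direction differed between the scales. Of the endothelial markers, 9 of 10 had estimates above 0 in the same libraries, and their part in the Notch4 values was not tested. Of the other ligands, Dlk1 was the highest at 5.26 TPM, while Dll3, Dlk2 and Dner had too few reads to be tested. All 5 receptor glycosylation genes had estimates above 0, with a median of 0.03, and the highest of them was Poglut1 at 37.3 TPM. Of the 10 receptor cleavage genes, 8 were above 0, with a median of 0.05, and the γ-secretase subunit Ncstn was the highest at 109 TPM. Summed over these 10, Pax7WT held 454 to 495 TPM and Pax7KR 493 to 529 TPM, and these ranges overlapped.

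In the nucleus, the coactivator list split into 4 genes above and 4 below 0, with Snw1 the highest at 74.6 TPM, and the corepressor list into 7 above and 6 below, with Tle3, a Groucho-type corepressor, the highest at 161 TPM. Of the 9 inhibitors and turnover factors, 4 were above and 5 below 0. Dtx4, an E3 ubiquitin ligase of the Deltex family, was the most abundant gene of the whole pathway list at 382 TPM, and its log2 fold change was -0.03 (SE 0.07, unadjusted p = 0.64 by edgeR). Of the other Hes and Hey genes, Hes6 was the highest at 30.1 TPM, Hes5 was too low to be tested, and Hes2 and Hes3 were listed at 0 in all 6 libraries. Among the other known targets, Col5a3, a collagen gene under Notch control in quiescent satellite cells, was the highest at 121 TPM, with a log2 fold change of 0.00 (SE 0.13, unadjusted p = 0.979 by edgeR).

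**Figure D5:**
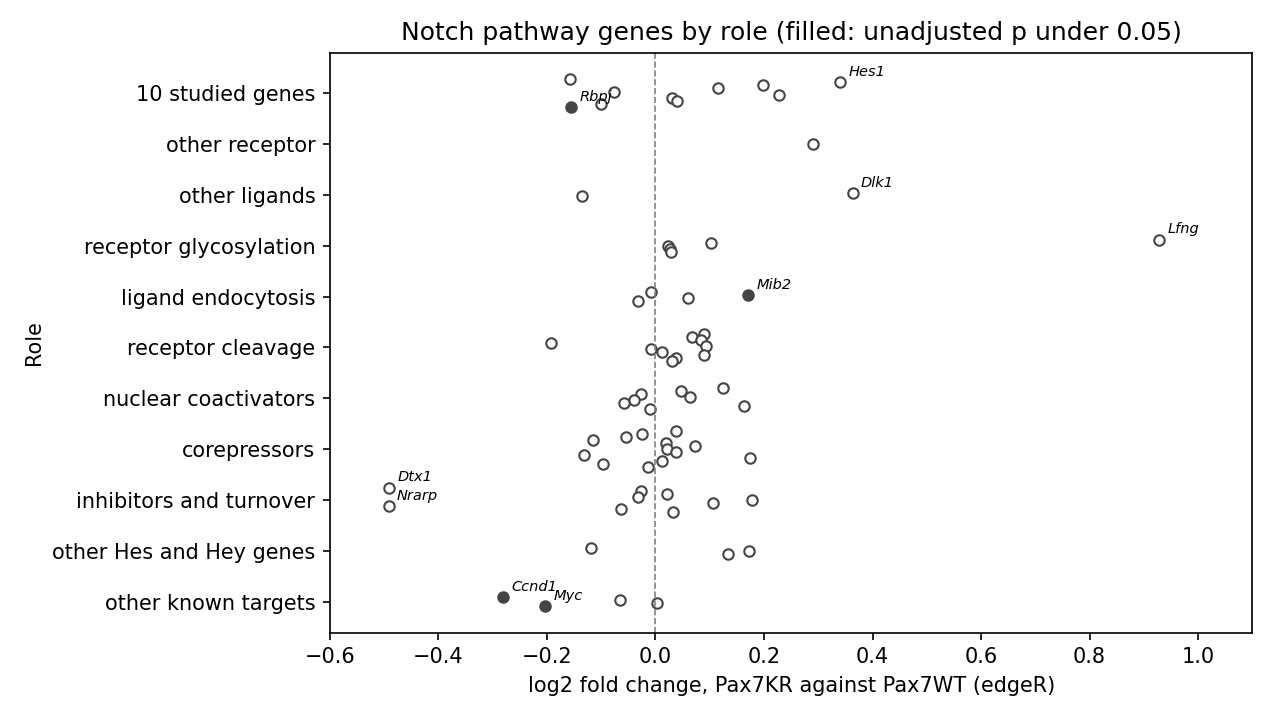
The log2 fold change in Pax7KR against Pax7WT of the 10 studied genes (top row) and of the 59 tested genes of the pathway list by role, 1 circle per gene. Filled circles have an edgeR unadjusted p under 0.05: Rbpj among the 10, and Mib2, Ccnd1 and Myc among the others. Most circles lie close to 0, and the largest value, 0.93, belongs to Lfng, a glycosyltransferase gene with 1.53 TPM or less in every library.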

How the data were processed

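RNA-sequencing was performed on 3 Pax7WT and 3 Pax7KR libraries, made from 15 ng of RNA with a directional kit. The authors quantified transcripts with Salmon 1.3.0 against GENCODE transcripts of GRCm38 with decoys. They deposited estimated counts per transcript, without normalization, and TPM values, which are corrected for transcript length and sum to the same total in each library. The authors' deposited table of their own comparison (log2 fold changes and p-values from DESeq2 1.28.1) was not used. Groups come from the sample labels.

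Estimated counts and TPM were summed per gene through GENCODE annotation of GRCm38 older than theirs, which matched 99.1% of 140992 transcripts. The unmatched ones held 0.606% of reads and were left out. Counts were rounded. The test in edgeR 4.0.16 (TMM, robust quasi-likelihood F test, genotype only) covered the 17152 genes that reached 5 reads in at least 2 libraries, with Benjamini-Hochberg adjustment over all genes and a cut-off of 0.1. Standard errors come from the fold change and the F statistic. CPM uses TMM library sizes. Depth of 17822367 to 27908054 reads limits the precision of the least abundant genes. DESeq2 1.42.0, limma-voom 3.58.1, other scalings and filters, length offsets, blocking on replicate number, a stricter cut-off (0.05) and fits with 1 library left out were the alternatives. The sum over protein-coding transcripts was added after seeing the data. R 4.3.3 and Python 3.11.15 were used, and the fit was tested on simulated data.

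The 10 genes, the pathway and marker lists and the tests were chosen with earlier results of these data known. Named are the 10 genes, Pax7, pathway genes with an unadjusted p under 0.05, the highest gene of each role or marker list, genes too low to be tested or at 0, and the 2 nearest genes of each effector. Notch4, Hdac1, Lfng, the Y-linked genes and the marker genes that give the range within a list were named after their values were seen. Upstream windows of 250 bases were taken from RefSeq for GRCm38.p6.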

Additional observations from a re-analysis of the deposited data

How the results depend on the processing

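Under all 18 alternatives 0 of the 10 Notch genes had an adjusted p under 0.1. Genes called over the whole table were 0 by edgeR, 30 by DESeq2, 45 by DESeq2 with transcript length, 157 with no filter and 13 with the replicate block, and 1 to 32 with 1 library left out, the highest without Pax7KR replicate 3. Notch genes with an unadjusted p under 0.05 numbered 1, against 2 (Rbpj and Hey1) with library totals only, no filter or the replicate block, 0 with the transcript length offset or DESeq2 with transcript length, and 0 to 3 with 1 library left out. Pathway genes by the same rule numbered 3, against 5 with no filter, 1 with the length offset and 0 in DESeq2 with transcript length. With 1 library left out they numbered 1 to 9, the lowest without Pax7KR replicate 2 and the highest without Pax7KR replicate 3. Fold changes reversed only when 1 library was left out: Dll1 to 0.0024 without Pax7WT replicate 1 (range -0.25 to 0.0024), Notch1 to -0.02, -0.05 and -0.02 without Pax7WT replicate 2, Pax7WT replicate 3 and Pax7KR replicate 2 (range -0.0515 to 0.17), Notch2 to -0.0124 without Pax7WT replicate 3 (range -0.0124 to 0.0850), and Jag1 to 0.0485 without Pax7KR replicate 3 (range -0.16 to 0.0485). The cause was not tested. In 11 other alternatives the 10 genes kept their direction. The log2 ratio of the genotype mean levels was also taken in CPM or on protein-coding transcripts in place of TPM. This ratio moved by less than the spread between replicates for all 10 genes, while the levels themselves differed between these scales.

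The labels do not say whether same-numbered libraries of the genotypes share more than a number. Their deviations correlated at -0.0003, 0.10 and 0.03 across genes, against -0.11 to 0.09 for pairs of different number. The replicate block was therefore kept as an alternative only, and it raised the calls from 0 to 13.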
